A study of Homo sapiens with 16 samples.

Results

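Tumours grown from mock_cre cells were compared with tumours grown from mock cells, 4 of each, which are 8 of the 16 arrays of the series. Both are sublines of PC-3, an established line from a human prostate cancer metastasis. The samples were taken by their labels, and all 20279 genes with exactly 1 gene symbol per probe set were compared. The mock_cre line is labelled with short telomeres, without exogenous hTERT, and its name carries Cre (hTERT is the reverse transcriptase subunit of telomerase). The mock line has the same telomere and hTERT labels, without Cre. A second pair served as a contrast. It was LhTERTL_cre (long telomeres, exogenous hTERT absent, Cre in the name) against LhTERTL (long telomeres, exogenous hTERT present), also 4 tumours each. For all 4 lines, cells were injected under the skin of 5-week-old female nude mice of BALB/c background, and tumours were taken once they measured 5 mm or more across. Each group is a single line, so the presence of Cre cannot be told apart from any other event in the derivation of that line, and p-values measure the spread among tumours of a line.

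Cre is a phage recombinase that cuts out DNA lying between loxP sites. In gene transfer work it is used to remove an inserted gene again, and a line that went through the same step without the insert serves as the control. PC-3 cells lack a functional p53 and androgen receptor and keep telomerase of their own. Type I interferon acts through a complex with STAT2 and IRF9 that binds an element in the promoters of antiviral genes, and NF-kB drives chemokine and survival genes in these and many other tumour cells.

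Each deposited value is a log2 signal centred on the median of its probe set over the 16 arrays, and a gene's value is the mean over its probe sets. It is called a centred log2 value below. It shows differences between tumours and no expression level, so the presence of prostate cell markers could not be checked. The array controls were not alike in mock_cre and mock. GAPDH and beta-actin control probe sets gave a log2 3'/5' signal ratio, which is higher where RNA is more degraded. Because its probe sets are centred too, the ratio is relative to the 16 arrays, and a negative value does not mean more 5' signal. It was 0.40, 0.55, 0.41 and 1.21 in mock_cre arrays, against -0.14, 0.01, 0.30 and 0.11 in mock arrays. Its means were 0.64 ± 0.38 and 0.07 ± 0.18 (SD, n = 4 each), and the groups did not overlap (two-sided exact permutation test over samples, p = 0.0286, which 4 against 4 cannot go below, and 0.143 after adjustment over 5 control measures). The poly-A spike controls stood at 1.23, 0.29, -0.04 and 0.76 in mock_cre arrays and at -0.12, -0.11, 1.23 and -0.27 in mock arrays, so mock 3 stood apart from its group. Mock_cre 4 had the highest 3'/5' ratio, and without it the difference in the ratio was 0.38 in place of 0.57. Differences between 2 arrays had an SD over genes of 0.197 to 0.248 within mock_cre, 0.156 to 0.244 within mock, and 0.263 to 0.382 between the groups. The control probe sets of the Cre sequence read a transcript spiked in at hybridisation, so they are no check of the introduced Cre.

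The 2 control lines differed at many genes. Of the 20279 genes, 3863 (19.0%) passed an adjusted p of 0.05, 1825 (9.0%) higher and 2038 (10%) lower in mock_cre tumours. Most differences were small: 258 genes (1.27%) were called and at least 2-fold apart, 152 of them lower and the rest higher, and 26 were at least 4-fold apart, 7 higher and 19 lower. The median difference over all genes was -0.015. In 4332 genes (21.4%) the 4 mock_cre and the 4 mock tumours did not overlap. When the fit held the 3'/5' ratio as a covariate, 1835 genes were called, 796 higher and 1039 lower. The fit with the covariate is therefore given below for the named genes whose call it ended. As the ratio did not overlap between the groups, this fit separates ratio and line poorly, and a lost call need not mean a smaller difference. The difference of FGB went from 2.88 to 3.03 and that of PRDX1 from -0.36 to -0.19, both without a call there. Counts of list members under the covariate compare with these 796 and 1039 of 20279 genes. They do not compare with the 9.0% and 10% of the fit without it. On the arrays of low poly-A spike signal alone, 2749 genes were called, and list counts there compare with that number. Mock 3 lay nearest to the mock_cre tumours: it was the highest mock tumour in 100 of the genes at least 2-fold higher (all but 6) and the lowest in 97 of the 152 genes at least 2-fold lower. Without mock 3, 3951 genes were called.

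The largest fall was in an antiviral gene. MX1, an interferon-induced GTPase that blocks virus replication, had centred log2 values of -0.22, -0.46, -1.0 and -0.65 in mock_cre tumours, against 2.98, 2.46, 2.62 and 3.42 in mock tumours. The groups lay far apart, and MX1 was 11-fold lower in mock_cre (log2 difference -3.45 ± 0.27, SE, adjusted p = 4.47e-07). IFI27, an interferon-induced mitochondrial protein, stood at 0.13, -0.05, 0.13 and -0.32 in mock_cre and at 3.19, 2.90, 2.74 and 3.61 in mock tumours, 8.81-fold lower in mock_cre. MX2, the paralogue of MX1 that restricts retroviruses, was 5.31-fold lower. ISG20, an exonuclease that degrades viral RNA, read -0.81, -0.56, -0.56 and -0.58 in mock_cre tumours, against 1.43, 1.21, 0.94 and 1.69 in mock tumours. Its difference was -1.95 ± 0.13 (SE, adjusted p = 1.42e-07).

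Promoter sequence is shown for 3 of these antiviral genes because it holds the core of the element that the interferon-activated STAT and IRF9 complex binds. The motif searched was GAAANNGAAA, or TTTCNNTTTC on the other strand, within 250 bases before to 50 after each gene's start. Sequences are from RefSeq on build GRCh38.p14, plus strand, 5′ to 3′, with matches in capitals. For IFI27 (chr14:94110486-94110735) and ISG20 (chr15:88638766-88639015) the 250 bases before the start are given. For MX1 (chr21:41420558-41420587) the first 30 bases from the start are given, since the match began 11 bases after it.
MX1: cgagcagaaatGAAACCGAAActgaattgt
IFI27: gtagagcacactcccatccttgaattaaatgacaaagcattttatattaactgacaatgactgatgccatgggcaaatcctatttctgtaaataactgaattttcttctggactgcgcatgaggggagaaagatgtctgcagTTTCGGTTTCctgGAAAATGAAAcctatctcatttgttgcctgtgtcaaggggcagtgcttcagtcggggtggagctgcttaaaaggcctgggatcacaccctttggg
ISG20: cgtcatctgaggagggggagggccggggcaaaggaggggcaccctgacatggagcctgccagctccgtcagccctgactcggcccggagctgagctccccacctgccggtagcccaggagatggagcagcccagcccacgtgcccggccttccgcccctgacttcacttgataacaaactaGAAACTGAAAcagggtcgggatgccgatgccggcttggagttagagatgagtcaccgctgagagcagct
IFI27 held 2 matches, 1 on each strand, starting 108 and 95 bases before its start, and ISG20 held 1, starting 69 bases before. The motif was in 446 of the 14945 tested genes with a promoter entry (2.98%), and in 3.65% of all 27305 promoters of the table. Among genes at least 2-fold lower in mock_cre it was in 17 of 116 promoters (14.7%), and among those at least 2-fold higher in 2 of 85 (2.35%). Without the 2-fold limit, called lower genes held it in 69 of 1641 promoters (4.2%), and those outside the interferon list in 51 of 1610 (3.17%). Within the interferon list it was in 18 of 31 promoters of called genes (58.1%) and in 12 of 17 of genes not called (70.6%), so its presence did not follow the calls inside the list. These are descriptions of letters in a window, not of binding.

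The interferon-stimulated list as a whole lay lower in mock_cre tumours. Of 62 members 38 fell and 0 rose, with a median difference of -0.64, against 10% of all genes lower and a median of -0.015. The mean over the list was 0.60, 0.38, 0.58 and 0.23 in mock_cre tumours and 1.26, 0.96, 1.28 and 1.51 in mock tumours, without overlap. With the covariate 25 members were called, all lower, and the median was -0.65. On the arrays of low poly-A spike signal alone (2 mock_cre and 3 mock arrays) 23 were called lower, with a median of -0.59. In bulk tumours, fewer cells that make a transcript and less of it per cell cannot be told apart. The list was chosen with interferon results of these tumours known, so its direction is not independent evidence.

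Neighbouring lists of innate immunity moved the same way in part, where 10% of all genes fell and 9.0% rose. IFI16, a nuclear and cytosolic DNA sensor, read -1.23, -1.04, -1.50 and -1.64 in mock_cre tumours, against 1.12, 1.12, 0.26 and 1.08 in mock tumours, a difference of -2.25 ± 0.21 (SE, adjusted p = 2.6e-06) in which mock 3 was the lowest mock tumour. AIM2, which senses cytosolic DNA and builds an inflammasome, fell by 1.32, and RIGI, a sensor of viral RNA, fell by 0.75. CGAS, the enzyme that makes cyclic GMP-AMP on cytosolic DNA, fell by 0.38, but 1 of its 3 probe sets went the other way and the call was lost with the median of the probe sets. Of the 22 genes of the DNA sensing list, which shares IFI16, RIGI, IFIH1 and SAMHD1 with the interferon list, 9 fell and 2 rose (median -0.26). With the covariate 5 fell and 0 rose. Of 22 genes of MHC class I and peptide processing 8 fell and 0 rose (median -0.23). PSMB9, an immunoproteasome subunit, fell by 1.14. TAP2, a subunit of the peptide transporter, fell by 0.48. TAP1, its partner, fell by 0.78 and PSMB8, another immunoproteasome subunit, by 0.63, both without a call under the ratio covariate (adjusted p = 0.0536 and 0.0872). Under that covariate 3 of the 22 were called, without mock 3 the number was 5, and on the low-spike arrays alone it was 1.

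Among NF-kB targets and cytokines, the 4 genes of lowest adjusted p were chemokines that attract neutrophils, and all 4 were lower in mock_cre tumours. CXCL6 stood at -1.21, -1.13, -1.16 and -1.30 in mock_cre tumours, against 1.31, 1.06, 1.23 and 1.34 in mock tumours. The tumours of each line were close together, and the difference was -2.43 ± 0.18 (SE, 5.41-fold lower, adjusted p = 4.2e-07). CXCL8 (IL8 in the file), the main human neutrophil attractant, read -0.48, -0.83, -0.36 and -0.79 in mock_cre and 1.67, 1.37, 1.35 and 1.41 in mock tumours, a difference of -2.06. CXCL2, a related chemokine, fell by 1.23. CXCL5, another, fell by 0.53, a call lost with the median of its 3 probe sets. The NF-kB and cytokine list had 32 measured members. Of these 13 fell and 1 rose (median -0.20), against 10% of all genes lower and 9.0% higher. Under the ratio covariate 9 fell and 1 rose. BCL2A1, an anti-apoptotic BCL2 relative, was at -1.82, -1.31, -2.20 and -2.08 in mock_cre and at 0.55, 0.63, 0.06 and 0.67 in mock tumours, 5.03-fold lower in mock_cre. Among 32 genes of apoptosis and TRAIL signalling 11 fell and 4 rose (median -0.12), and the number that rose was 1 without mock_cre 4 and also with the covariate. The death receptor TNFRSF10A fell by 0.73 and the survival protein BCL2L1 by 0.44.

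**Figure D1:**
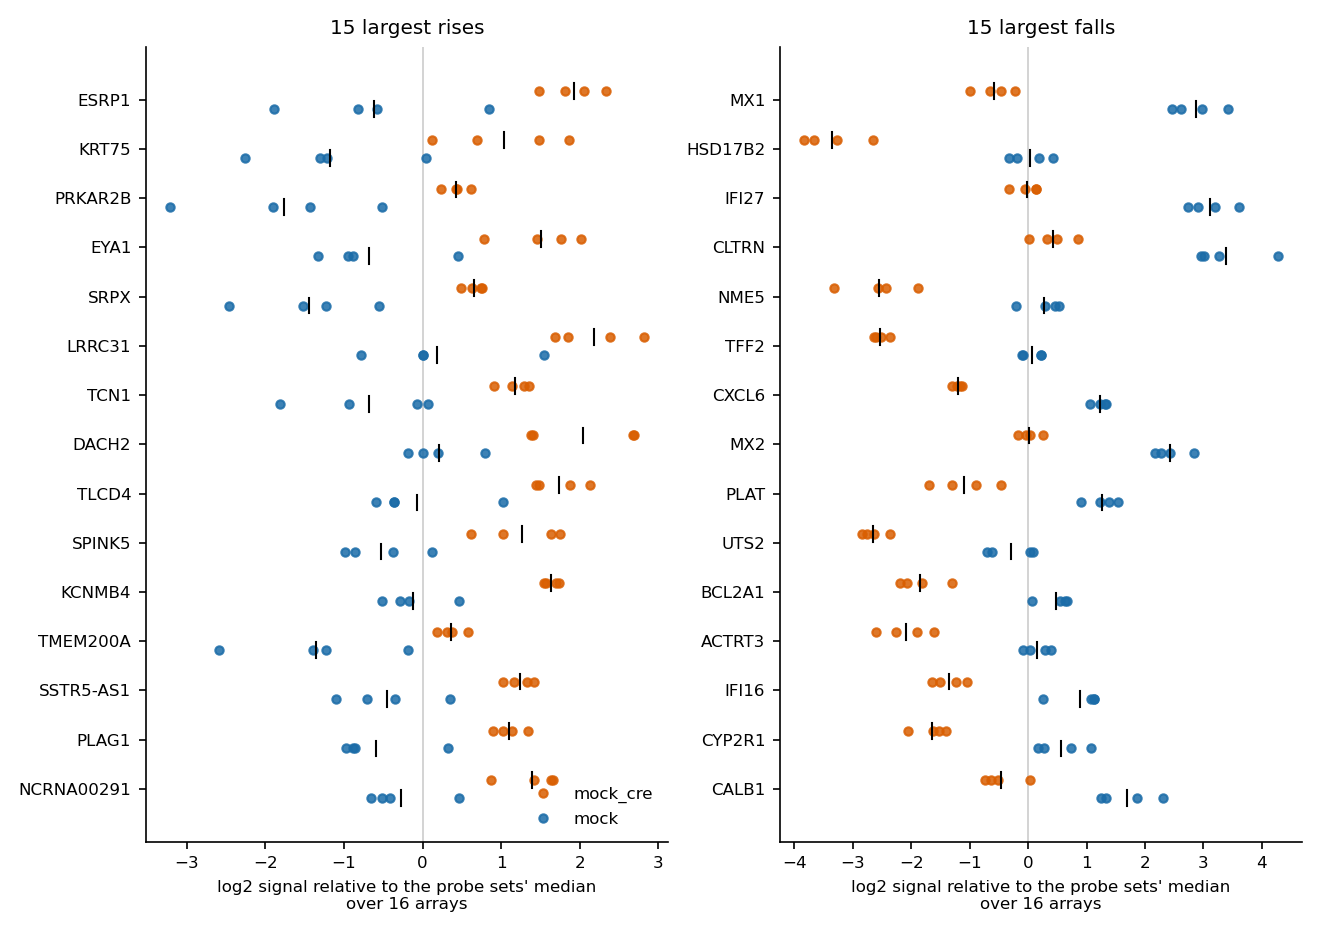
Centred log2 values (x axis) of the 15 called genes with the largest rise and the 15 with the largest fall in mock_cre against mock among genes whose tumours do not overlap, 1 point per tumour (4 mock_cre above, 4 mock below in each row) and a line at each group mean. The blue mock point nearest to the orange ones is often the same tumour, mock 3, which was the highest mock tumour in 14 of the 15 rises and the lowest in 11 of the 15 falls.

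Whether the other genes among the 15 largest falls share a role was not tested. HSD17B2, which oxidises estradiol and testosterone to weaker steroids, had values of -3.27, -2.65, -3.67 and -3.84 in mock_cre tumours, against 0.19, 0.43, -0.32 and -0.19 in mock tumours (10.5-fold lower, log2 difference -3.39 ± 0.45, SE, adjusted p = 6.24e-05). The mock tumours were close to the median of all arrays, and the mock_cre tumours were the ones apart. TFF2, a secreted trefoil peptide of the gastric mucosa, stood at -2.64, -2.60, -2.52 and -2.36 in mock_cre and at -0.08, 0.22, -0.11 and 0.22 in mock tumours, with the same layout. CLTRN (TMEM27 in the file), which carries amino acid transporters to the membrane, had the opposite layout. It read 0.86, 0.49, 0.02 and 0.32 in mock_cre tumours, against 3.27, 2.96, 3.01 and 4.28 in mock tumours, so here mock was apart from the other lines (LhTERTL_cre -0.86 ± 0.53 and LhTERTL -0.36 ± 0.37, SD, n = 4 each). NME5, a nucleoside diphosphate kinase relative of cilia and testis, fell by 2.82. PLAT, tissue plasminogen activator, fell by 2.36. UTS2, the vasoactive peptide urotensin 2, fell by 2.35. ACTRT3 (ARPM1 in the file), an actin-related protein, fell by 2.26. CYP2R1, the main vitamin D 25-hydroxylase, fell by 2.22 and CALB1, a calcium-binding protein, by 2.16. All 15 falls kept their call with the 3'/5' covariate. Of the 152 genes at least 2-fold lower, the mean of the long-telomere lines lay nearer to mock in 101 and nearer to mock_cre in 51.

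Whether the 15 largest rises among called genes without overlap share a role was not tested either. ESRP1 was the first of them. ESRP1, a splicing factor that keeps epithelial isoforms, had values of 2.06, 1.48, 2.34 and 1.81 in mock_cre tumours, against -0.58, -0.82, 0.84 and -1.89 in mock tumours. The mock tumours were spread over nearly 3 log2 units with mock 3 at the top, and the difference was 2.53 ± 0.45 (SE, 5.78-fold, adjusted p = 0.000762). EYA1, a phosphatase and transcriptional coactivator of organ development, read 1.76, 0.78, 2.02 and 1.45 in mock_cre and -0.88, -0.95, 0.45 and -1.33 in mock tumours, a rise by 2.18. DACH2, a nuclear protein of the same developmental network, rose by 1.83. KRT75, a keratin of the hair follicle, rose by 2.22. PRKAR2B, a regulatory subunit of protein kinase A, rose by 2.20. SRPX, a sushi-repeat protein, rose by 2.10.

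KCNMB4, the beta 4 subunit of the large-conductance potassium channel, had the smallest spread of the 15 rises in mock_cre tumours. It stood at 1.73, 1.70, 1.54 and 1.57 in mock_cre and at -0.17, -0.29, 0.47 and -0.52 in mock tumours (1.76 ± 0.17, SE, 3.39-fold higher, adjusted p = 3.88e-06). LRRC31, a leucine-rich repeat protein, rose by 2.0, TLCD4 (TMEM56 in the file) by 1.81 and PLAG1, a zinc-finger growth regulator, by 1.69. SSTR5-AS1 (LOC146336 in the file), annotated as antisense to a somatostatin receptor gene, rose by 1.69 and the noncoding NCRNA00291 by 1.67. The strand read by these last 2 probe sets is not given in the sources used here. TCN1, which binds vitamin B12, rose by 1.86, SPINK5, a serine protease inhibitor of the epidermis, by 1.79 and TMEM200A by 1.71. With the covariate 12 of the 15 kept their call, and TCN1, SPINK5 and TMEM200A did not (adjusted p = 0.106, 0.0878 and 0.0701). Of the genes at least 2-fold higher, the mean of the long-telomere lines was nearer to mock in 86 and nearer to mock_cre in 20.

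Genes of cell adhesion changed in both directions. Of 47 epithelial junction genes and keratins 13 rose and 7 fell (median 0.10), against 9.0% of all genes higher and 10% lower. With the covariate 6 rose and 5 fell, in a fit that called 796 of all 20279 genes higher and 1039 lower. KRT18, a simple epithelial keratin, rose by 0.91. PKP1, a desmosomal plaque protein, read -1.71, -1.32, -1.77 and -1.87 in mock_cre tumours, against -0.02, 0.11, -0.53 and 0.19 in mock tumours, a difference of -1.60. DSC2, a desmosomal cadherin, fell by 1.55 and KRT81, a hair keratin, by 1.33. Of 33 mesenchymal genes 13 fell and 3 rose (median -0.22), with 5 and 1 under the ratio covariate and 8 and 2 on the low-spike arrays. SNAI2, a repressor of epithelial genes, stood at -0.92, -0.65, -1.54 and -1.08 in mock_cre tumours, against 0.45, 0.29, -0.16 and -0.10 in mock tumours (-1.17 ± 0.15, SE, adjusted p = 6.35e-05). CDH2 (N-cadherin) fell by 0.79 and GNG11, a G protein gamma subunit, by 1.62.

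Matrix genes followed a similar split. Of 39 collagens and matrix proteases 12 fell and 3 rose (median -0.13), against 10% of all genes lower and 9.0% higher. Under the covariate 8 fell and 1 rose. COL4A1, a basement membrane collagen, fell by 1.04, and COL5A2, a fibrillar collagen, rose by 0.87. Of 28 integrins and laminins 7 rose and 4 fell (median 0.08). The laminin chains LAMA5 and LAMB2 rose by 0.64 and 0.61 and the collagen receptor subunit ITGA1 by 0.85, while ITGA3, a laminin receptor subunit, fell by 0.61. With the covariate 4 integrins and laminins rose and 1 fell, and without mock_cre 4 the number that fell was also 1.

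Lists of signalling pathways mostly held a few changes each way, against 9.0% of all genes higher and 10% lower. In the EGFR list 7 of 28 fell and 2 rose. DUSP5, a nuclear phosphatase of ERK and a feedback gene of the pathway, read -1.47, -1.38, -1.32 and -1.43 in mock_cre tumours, against -0.18, 0.01, -0.59 and -0.01 in mock tumours, a difference of -1.21. ERRFI1, a feedback inhibitor of EGFR, fell by 0.58, and the ligands HBEGF and NRG2 fell by 0.59 and 0.53. Of 31 TGF-beta and BMP genes 7 fell (22.6%) and 6 rose (19.4%), with 2 and 4 under the covariate. ID3, a BMP target that blocks helix-loop-helix factors, rose by 1.22 and BAMBI, a decoy receptor, by 1.06, while the co-receptor TGFBR3 fell by 1.02. Of 31 Wnt genes 5 rose (16.1%) and 2 fell (6.45%), and 1 rose and 1 fell with the covariate. The receptor FZD7 rose by 1.09, and FZD8, another receptor, fell by 0.99 (adjusted p = 0.117 with the ratio covariate). BMP4 rose by 0.45, without a call under that covariate (adjusted p = 0.0899). Of 25 prostate genes 6 rose and 5 fell, with 2 and 3 under the covariate. STEAP2, a metalloreductase, rose by 0.99 and SPDEF, a luminal transcription factor, by 0.44 (adjusted p = 0.072 with the covariate). GATA2, a cofactor of the androgen receptor, and TFF3, a trefoil peptide, fell by 0.47 and 1.51. The call of TFF3 was lost under quantile normalization. Of 37 HOX genes 8 rose and 3 fell, with 7 and 1 under the covariate. HOXA13 and HOXA10 of the posterior HOXA cluster rose by 1.15 and 0.79, HOXC4 rose by 0.40 and HOXD3 fell by 0.49.

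Proliferation and growth genes tended lower. Of 50 cell cycle genes 14 fell and 0 rose (median -0.20), against 10% of all genes lower and 9.0% higher. PCNA, the sliding clamp of DNA replication, read -0.79, -0.95, -0.77 and -0.75 in mock_cre tumours, against -0.17, -0.15, -0.24 and -0.19 in mock tumours, and its difference was -0.63 ± 0.07 (SE, adjusted p = 1.03e-05). GINS1, a part of the replicative helicase, fell by 0.59, TTK, a spindle checkpoint kinase, by 0.75 and KIF20A, a kinesin of cytokinesis, by 0.75. The call of KIF20A was lost under quantile normalization. The list mean was -0.62, -0.61, -0.37 and -0.28 in mock_cre tumours and -0.18, -0.16, -0.39 and -0.25 in mock tumours, so the groups overlapped. The list median was -0.31 on the low-spike arrays and -0.04 on the high-spike arrays (mock_cre 1 and 4, mock 3), and under the ratio covariate 8 members were called. Of 32 MYC targets and ribosome biogenesis genes 9 fell and 1 rose (median -0.15), but with the covariate 5 fell and 0 rose, and on the low-spike arrays 4 fell and 1 rose. MYC itself fell by 0.37. ODC1, the first enzyme of polyamine synthesis, was at -1.19, -1.05, -1.23 and -1.26 in mock_cre and at -0.11, 0.00, -0.54 and 0.00 in mock tumours, a difference of -1.02. NOP56, of the nucleolar methylation complex, fell by 0.54 and POLR1B, an RNA polymerase I subunit, rose by 0.34 (adjusted p = 0.0802 with the covariate).

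**Figure D2:**
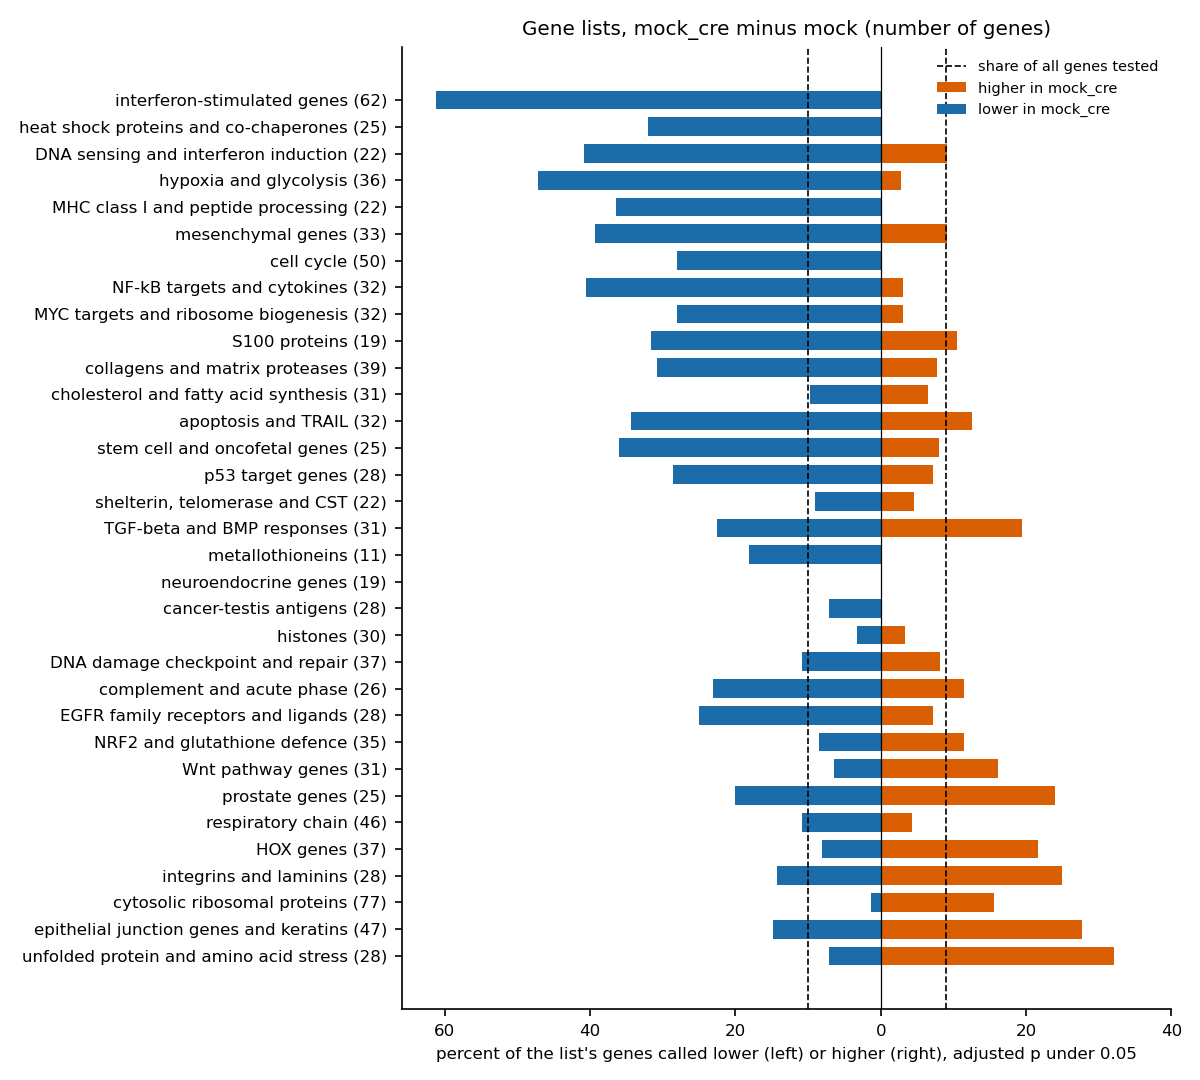
Percent of the genes of each list called lower (blue, left) or higher (orange, right) in mock_cre against mock, with the list size in brackets, lists ordered by median difference and dashed lines at the shares of all genes tested (10% lower, 9.0% higher). Interferon-stimulated genes reached 61.3% lower, and unfolded protein and amino acid stress genes reached 32.1% higher.

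Stress and metabolic lists differed in direction. Of 28 genes of unfolded protein and amino acid stress 9 rose and 2 fell (median 0.15), against 9.0% of all genes higher and 10% lower. With the covariate 6 rose and 0 fell and the median was 0.07, and on the high-spike arrays the median was -0.02. ATF4, the central activator of the amino acid response, rose by 0.43. XBP1, an activator of the unfolded protein response, read 0.58, 0.36, 0.62 and 0.37 in mock_cre tumours, against -0.12, -0.13, -0.03 and -0.06 in mock tumours, a rise by 0.56. PSPH, the last enzyme of serine synthesis, rose by 0.80 and SLC7A11, the cystine transporter, by 0.53. Of 36 hypoxia and glycolysis genes 17 fell and 1 rose (median -0.23), with 7 and 1 under the ratio covariate and 10 and 1 on the low-spike arrays. BNIP3, a mitophagy receptor, fell by 0.65, PFKFB3, a driver of glycolytic flux, by 0.73 and EGLN1, an oxygen sensor, by 0.45. The 1 rise was ADM, the peptide adrenomedullin, by 0.70. Of 25 heat shock genes 8 fell and 0 rose (median -0.26), with 2 under the covariate. BAG3, an HSP70 co-chaperone, fell by 0.72 and HSP90AA1 by 0.47, while HSPA8 and HSF2, with differences of -0.39 and -0.44, lost their calls under the covariate (adjusted p = 0.0914 and 0.0649).

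Of 77 cytosolic ribosomal proteins 64 were not called. Those called were 12 that rose (15.6%) and 1 that fell (1.3%), against 9.0% and 10% of all genes. The list median was 0.09. The number of rises was 3 under the ratio covariate, 6 on the low-spike arrays and 7 without mock_cre 4. RPS21 rose by 0.48 and RPL11 by 0.31. RPS15 and RPL31, higher by 0.33 and 0.37, lost their calls under the covariate (adjusted p = 0.0895 and 0.107). Respiratory chain, sterol and NRF2 lists were near or below the shares of all genes (9.0% higher, 10% lower). Of 46 respiratory chain genes 5 fell (10.9%) and 2 rose (4.35%), with a median of 0.03. NDUFB10 of complex I, UQCRFS1 of complex III and COX5A of complex IV had differences of -0.49, -0.39 and -0.32, all called, and ATP5F1C of the ATP synthase (-0.34) lost its call under the covariate (adjusted p = 0.0691). Of 31 genes of cholesterol and fatty acid synthesis 3 fell (9.68%) and 2 rose (6.45%), and 1 fell and 1 rose with the covariate. FDFT1, squalene synthase, rose by 0.87 and NSDHL fell by 0.46. HSD17B7 (higher by 0.37) and IDI1 (difference -0.36) lost their calls under the covariate (adjusted p = 0.108 and 0.119), and IDI1 was at -0.23 without mock 4. Of 35 NRF2 and glutathione genes 4 rose (11.4%) and 3 fell (8.57%), and 1 rose and 2 fell with the covariate. SRXN1, which repairs peroxiredoxins, fell by 0.54, while GPX4 (0.48) and PRDX1 (-0.36) lost their calls under the covariate (adjusted p = 0.116 and 0.21).

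Metallothioneins differed in a single strong member. Of 11 measured, 2 fell (18.2%) and 0 rose, against 10% of all genes lower and 9.0% higher. MT1M, a zinc-binding protein, stood at -0.09, -0.03, -0.44 and -0.71 in mock_cre tumours and at 2.02, 1.52, 1.17 and 1.32 in mock tumours (-1.83 ± 0.17, SE, adjusted p = 3.17e-06). MT1F had a difference of -0.30, with overlapping tumours and a call lost without mock 1, mock_cre 1 or mock_cre 3. Near-identical metallothionein copies can share probes. Of 19 S100 proteins 6 fell and 2 rose, but with the covariate 2 fell and 0 rose. S100A10, a partner of annexin A2, fell by 0.63. S100A4, linked to motility, had a difference of -1.18 (adjusted p = 0.0728 with the covariate). S100A9, best known from neutrophils, and S100P, an epithelial calcium sensor, were higher by 1.32 and 0.80, and both lost their calls under the covariate (adjusted p = 0.0625 and 0.216). Of 26 complement and acute phase genes 6 fell and 3 rose, with 4 and 0 under the covariate. TFPI2, a protease inhibitor, fell by 1.92, the complement proteases C1S and C1R by 1.11 and 1.35, and the complement inhibitor CD55 by 0.67.

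Repair genes were called at about the share of all genes (10% lower, 9.0% higher). Of 37 checkpoint and repair genes 4 fell and 3 rose (median -0.02), with 2 and 2 under the covariate. RAD50, of the break-sensing MRE11 complex, read -0.71, -1.28, -0.72 and -1.20 in mock_cre tumours, against 0.04, -0.07, -0.27 and 0.13 in mock tumours, and its difference was -0.94 ± 0.14 (SE, adjusted p = 0.000155). LIG4, the ligase of end joining, had a difference of -0.53 with overlapping tumours, and its call was lost without mock 4, without mock_cre 4 and with the covariate (adjusted p = 0.34). DCLRE1C, the end-joining nuclease Artemis, fell by 0.26, a call lost without mock 4 or mock_cre 3. Of 28 p53 target genes 8 fell and 2 rose (median -0.11), although PC-3 has no functional p53. AEN, an apoptosis nuclease, fell by 0.76, PLK2 by 0.74, GADD45A by 0.65 and GADD45B by 0.57.

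Of 22 members of the shelterin, telomerase and CST list 2 fell (9.09%) and 1 rose (4.55%), against 10% and 9.0% of all genes (median -0.08). Without mock 3, and also without mock_cre 4, 4 of them fell. TERT, the endogenous catalytic subunit, had centred log2 values of -0.54, 0.04, -0.31 and -0.05 in mock_cre tumours, against 0.05, 0.39, 0.07 and 0.30 in mock tumours. The highest mock_cre value, 0.04, was just under the lowest mock value, 0.05. The difference was -0.42 ± 0.12 (SE, adjusted p = 0.0247), and it rested on 1 probe set, which read -0.70 (adjusted p = 0.00614), while the other read -0.14 (adjusted p = 0.657). The call was lost without mock 2 (-0.36), mock 4 (-0.39), mock_cre 1 (-0.31) or mock_cre 3 (-0.39), and with the ratio covariate (adjusted p = 0.0697). TERT averaged 0.11 ± 0.19 in LhTERTL_cre tumours and 1.48 ± 0.14 in LhTERTL tumours (SD, n = 4 each), the line labelled with exogenous hTERT. DKC1, the RNA-binding partner of telomerase, fell by 0.51 (adjusted p = 0.224 with the covariate). RTEL1, a helicase that unwinds telomere loops, was higher by 0.27 with an adjusted p of 0.0395, a call lost in 6 of the 8 runs that left out 1 array and with the covariate (adjusted p = 0.104).

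Neuroendocrine genes, cancer-testis antigens and histones held few called genes, against 19.0% of all genes (9.0% higher, 10% lower). Of 19 neuroendocrine genes 0 were called, and SCG5 had the smallest adjusted p (0.0518), with -0.41, -0.03, -0.42 and 0.36 in mock_cre tumours and 1.28, 0.57, 0.68 and 0.73 in mock tumours. Without mock_cre 4, 2 neuroendocrine genes were called lower. Of 28 cancer-testis antigens 2 fell. MAGEB6 fell by 0.54, and MAGEA4 (-0.21) had an adjusted p of 0.048 that passed in only 2 of the 8 runs without 1 array and not with the covariate (adjusted p = 0.396). Of 30 histone genes 1 rose and 1 fell. H2BC21 (HIST2H2BE in the file, 0.85) and H3C2 (HIST1H3B in the file, -0.45, with overlapping tumours) both lost their calls under the covariate (adjusted p = 0.245 and 0.0938), and H2BC21 also lost it without mock 1, mock 2, mock_cre 3 or mock_cre 4, and H3C2 without mock 1, mock 4 or mock_cre 2. Of 25 stem cell and oncofetal genes 9 fell and 2 rose (median -0.11), but 0 fell and 1 rose under the ratio covariate. The oncofetal RNA-binding protein IGF2BP3 (-0.42), the hyaluronan receptor CD44 (-0.33), PROM1 (-0.59) and NES (-0.78) lost their calls there (adjusted p = 0.0533, 0.0933, 0.0892 and 0.158).

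Markers of other cell types were called near or below the share of all genes (19.0%), in short lists. Host cells are mouse, so human probes see them only by cross-hybridisation. Of 15 macrophage, 10 lymphoid, 7 erythrocyte and 11 keratinocyte markers 0 were called. Of 15 fibroblast markers 2 rose (COL1A1 0.34, COL5A1 0.34) and 1 fell (COL6A3 -0.80), and both rises were lost under the ratio covariate (adjusted p = 0.259 and 0.0765). COL1A1 also lost its call without mock 1, mock_cre 2 or mock_cre 4, and COL6A3 tumours overlapped. Of 15 endothelial markers ROBO4 fell (-0.48), a call lost under the covariate (adjusted p = 0.13). Of 10 neutrophil and mast cell markers S100A9 rose and FCGR3B fell (-0.58), of 14 muscle markers myoglobin (MB) rose (0.90), and of 10 adipocyte markers CIDEC (0.31) and CFD (0.54) rose, both lost under the covariate (adjusted p = 0.168 and 0.218). Adipocyte markers had means of -0.06 to 0.00 in mock_cre and -0.29 to -0.11 in mock tumours, without overlap. Mean list values ran from -0.20 to 0.06 in mock_cre and from -0.13 to 0.01 in mock tumours for fibroblast markers, and from -0.12 to 0.09 and from -0.01 to 0.07 for macrophage markers. The part of host RNA in the results was not tested.

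**Figure D3:**
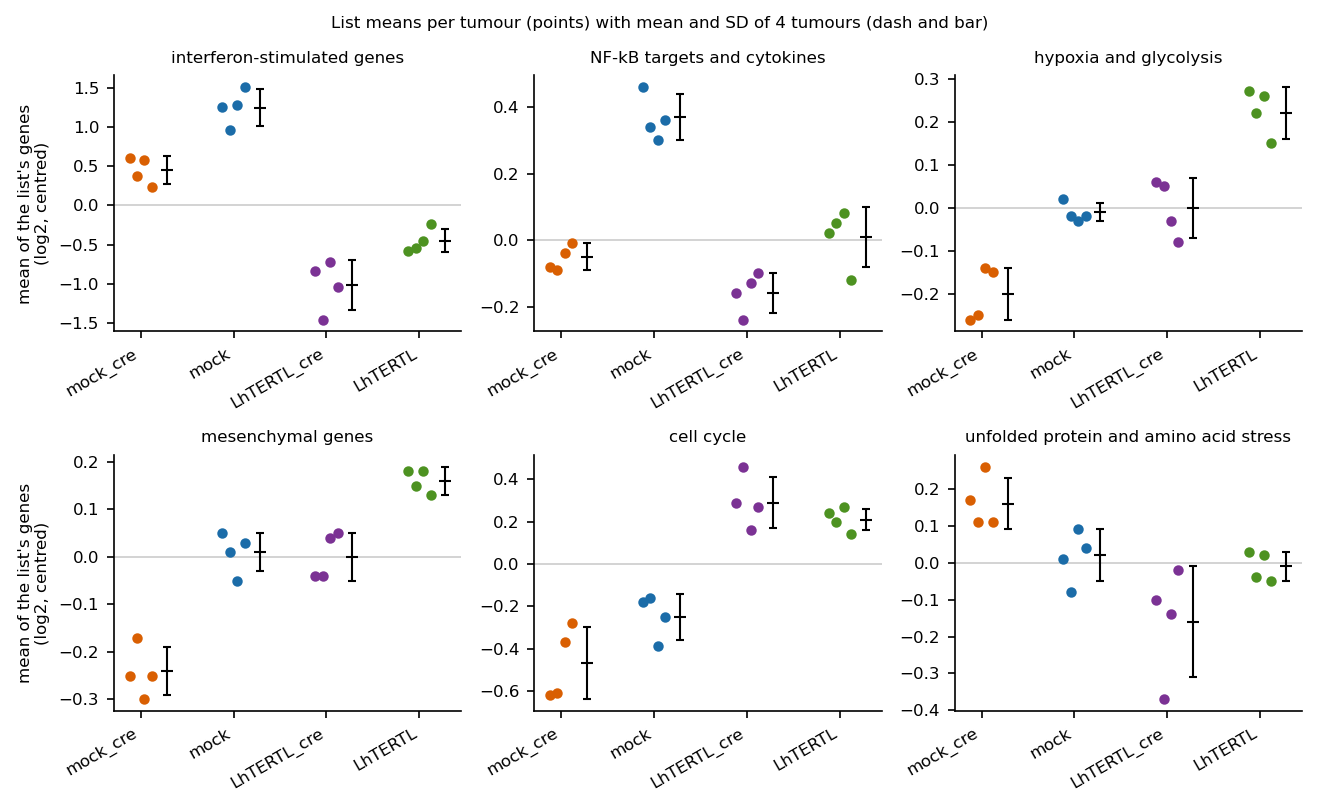
Mean centred log2 value (y axis) of the genes of 6 lists in each tumour (points) of mock_cre, mock, LhTERTL_cre and LhTERTL, with the mean and SD of the 4 tumours as a dash and bar. Mock_cre and mock tumours did not overlap for interferon-stimulated genes, NF-kB targets, hypoxia and mesenchymal genes or unfolded protein stress, and overlapped for the cell cycle list. The 6 lists are a selection. Among lists not drawn, some overlapped, such as MHC class I, Wnt and respiratory chain genes, and some did not, such as p53 targets.

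The long-telomere pair with and without Cre had fewer called genes. LhTERTL_cre and LhTERTL differ by Cre and also by the exogenous hTERT, and they share no array with mock_cre and mock. In that pair 657 genes (3.24%) were called, 187 higher and 470 lower. Called in both pairs were 258 genes, 121 lower in both, 41 higher in both and 96 in opposite directions. The 162 genes with the same direction are 4.19% of the mock_cre calls and 24.7% of the LhTERTL_cre calls. The difference between the pairs was tested directly and passed for 2152 genes (10.6%), among them 1697 of the 3863 genes called in mock_cre (43.9%). Among the largest changes it passed for 13 of the 15 rises and 14 of the 15 falls. These genes, like the 3863, were picked by mock_cre minus mock, which is part of the tested difference. Their counts follow in part from that choice and do not measure how often the pairs differ.

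Some genes moved together in both pairs and others apart. The difference of -3.45 in MX1 between mock_cre and mock was larger than that of -1.65 between LhTERTL_cre and LhTERTL (test of the difference, adjusted p = 0.00607), in which MX1 averaged -1.04 ± 0.63 in LhTERTL_cre and 0.61 ± 0.38 in LhTERTL tumours (SD, n = 4 each). CALB1 had differences of -2.16 in mock_cre against mock and -1.60 in LhTERTL_cre against LhTERTL, TCN1 rose by 1.86 in the first pair and 1.83 in the second, and TMEM200A by 1.71 in the first and 2.71 in the second. For these the difference between the pairs was not called (adjusted p = 0.519, 0.989 and 0.246). EYA1 had differences of 2.18 in mock_cre against mock and -1.66 in LhTERTL_cre against LhTERTL (adjusted p = 0.0175 for the latter). It thus went opposite ways in the pairs (test of the difference, adjusted p = 0.000197). ID3 did the same, with 1.22 in the short-telomere and -1.40 in the long-telomere pair (test of the difference, adjusted p = 5.15e-05). ISG20 had a difference of -1.95 in the short-telomere pair and 0.17 in the long-telomere pair (adjusted p = 0.606), and the test of the difference between the pairs passed (adjusted p = 6.28e-06). Over the interferon list 19 of 62 genes fell in LhTERTL_cre (median -0.45), where 470 of all 20279 genes fell. The difference between pairs was called for 9 of the 62, against 10.6% of all genes.

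The fibrinogen chains FGB and FGG, made mainly in liver, had among the largest differences between the pairs. FGB read 3.62, 1.26, 4.03 and 1.73 in mock_cre tumours, against -1.10, 0.01, 2.11 and -1.91 in mock tumours, so the groups overlapped through mock 3. It was higher by 2.88 (adjusted p = 0.0116), a call lost without mock 4 and with the ratio covariate (adjusted p = 0.0925). FGG was higher by 2.43, also with overlap and without a call under the covariate (adjusted p = 0.0578). ANXA10, a gastric annexin, stood at -2.31, -2.81, -1.85 and -3.10 in mock_cre and at -0.32, 0.45, -0.90 and -0.97 in mock tumours, a difference of -2.08 that kept its call under the covariate.

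**Figure D4:**
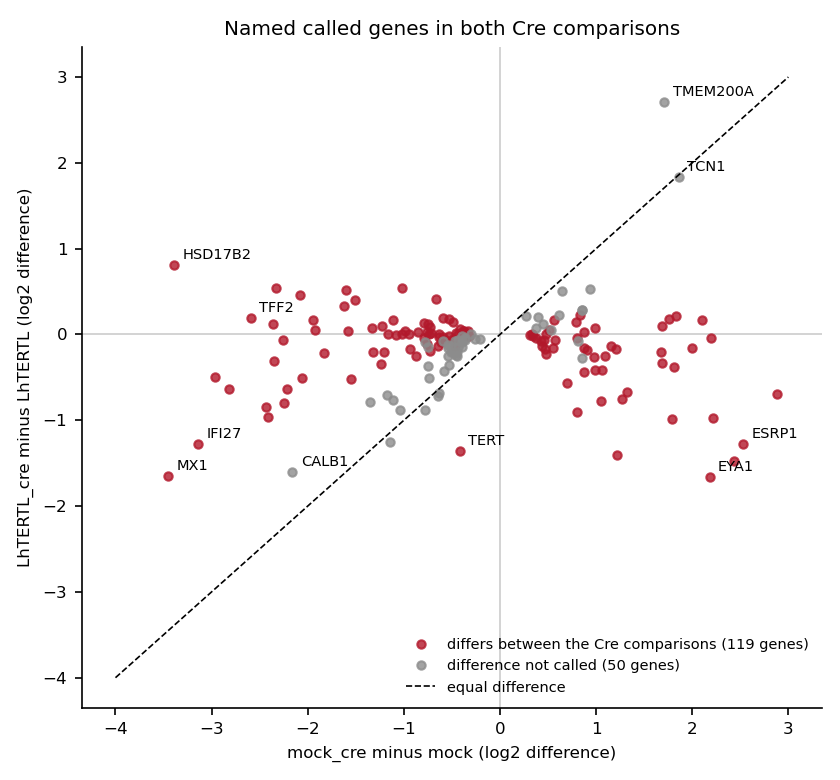
Log2 difference of mock_cre minus mock (x axis) against LhTERTL_cre minus LhTERTL (y axis) for the 169 named genes called in mock_cre, red where the difference between the pairs passed an adjusted p of 0.05 (119 genes) and grey where it did not (50 genes). The dashed line marks equal differences. Most of these genes were picked by mock_cre minus mock, which is part of the tested difference, so the 119 follow in part from that choice.

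Neighbouring genes shared direction in a few places. Genes were taken in order along each chromosome in 383 blocks of mostly 50 genes, 19205 genes in all, and the medians of the blocks ran from -0.076 to 0.064 between the 10th and 90th percentile. Of all genes tested, 10% fell and 9.0% rose. The lowest block lay on chromosome X from GS1-600G8.3 to KLHL34, where 26 of 50 genes fell and 0 rose (median -0.324). EIF1AX, a translation initiation factor in it, read -0.90, -0.85, -0.99 and -1.06 in mock_cre tumours, against 0.14, 0.13, -0.01 and 0.28 in mock tumours (-1.08 ± 0.08, SE, adjusted p = 3.56e-07). AP1S2, an adaptor subunit (-1.11), SH3KBP1, an endocytic adaptor (-1.58), and SCML1 (-1.24) fell too, and CLTRN lies in the same block. On chromosome 14, in the block that ends at CCDC198, 25 of 50 genes fell and 2 rose (median -0.253), with TMX1, a redox protein (-0.76), GCH1, the first enzyme of tetrahydrobiopterin synthesis (-0.85), and the mitotic genes CDKN3 (-0.95) and DLGAP5 (-0.79) among the falls. PTGER2, a prostaglandin receptor in it, had a difference of -0.74 (adjusted p = 0.12 with the covariate). CDKN3 lost its call under quantile normalization. Of the 383 blocks, 2 had 25 or more of 50 genes, or the same share, called in one direction, and these are the blocks on X and 14. In the block from TFRC to LMLN on chromosome 3, 11 of 28 genes fell and 1 rose (median -0.21). FYTTD1, an mRNA export factor, fell by 0.87, FBXO45 by 0.51, DYNLT2B (TCTEX1D2 in the file) by 0.46 and WDR53 by 0.44. TFRC, the transferrin receptor, had a difference of -0.40 with overlapping tumours, and lost its call under the covariate (adjusted p = 0.486) and without mock 1, mock 2, mock 4, mock_cre 2 or mock_cre 4.

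Blocks with the highest medians were on chromosomes 9, 4 and 2. From ENG to PRRX2 on chromosome 9, 20 of 50 genes rose and 1 fell (median 0.213), against 9.0% of all genes higher and 10% lower. The median was 0.132 with the covariate and then no longer the highest, and the median centred value of mock_cre 1 (-0.07) was level with the mock tumours (-0.09 to -0.07). GOLGA2, a Golgi matrix protein, rose by 0.57 and LRRC8A, a volume-regulated anion channel subunit, by 0.46. IER5L (0.99), SPOUT1 (C9orf114 in the file, 0.51) and ENDOG (0.47) lost their calls under the covariate (adjusted p = 0.0932, 0.0529 and 0.4), and ENDOG also without mock 4 or mock_cre 3. From ANAPC4 to ATP8A1 on chromosome 4, 18 rose and 0 fell (median 0.185). LIMCH1, an activator of myosin II, rose by 1.27, KLF3-AS1 (FLJ13197 in the file) by 0.94, SMIM14 (C4orf34 in the file) by 0.85 and KLHL5 by 0.83. TMEM156, higher by 0.87, had an adjusted p of 0.0784 with the covariate. From STEAP3 to CYP4F30P on chromosome 2, 19 rose and 1 fell (median 0.167, and 0.107 with the covariate, then below several other blocks). EPB41L5, a FERM protein of the cell cortex, rose by 1.21, MAP3K2-DT (LOC100506922 in the file) by 1.05, the phosphatase PTPN4 by 0.98 and the acyl-CoA-binding protein DBI by 0.55. CYP27C1, higher by 0.81, lost its call under the covariate (adjusted p = 0.105). In the long-telomere pair the medians of these 6 blocks lay between -0.049 and 0.05. By whole chromosomes, 20.6% of the tested genes of chromosome 9 rose and 6.77% fell, and on chromosome 2 the shares were 17.6% and 5.55%. On chromosome 4 they were 15.8% and 7.97%. On chromosome 3 they were 10.9% and 11.9%, near the shares of all genes (9.0% and 10%). Chromosome X had 3.87% and 22.2%, and chromosome 14 3.3% and 16.8%. Chromosomes outside these 6 blocks leaned either way. Lower were, for example, chromosome 18 (6.34% rose, 17.6% fell) and chromosome 10 (4.64% and 16.1%). Higher were, for example, chromosome 22 (11.1% and 3.04%) and chromosome 12 (12.6% and 8.19%).

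**Figure D5:**
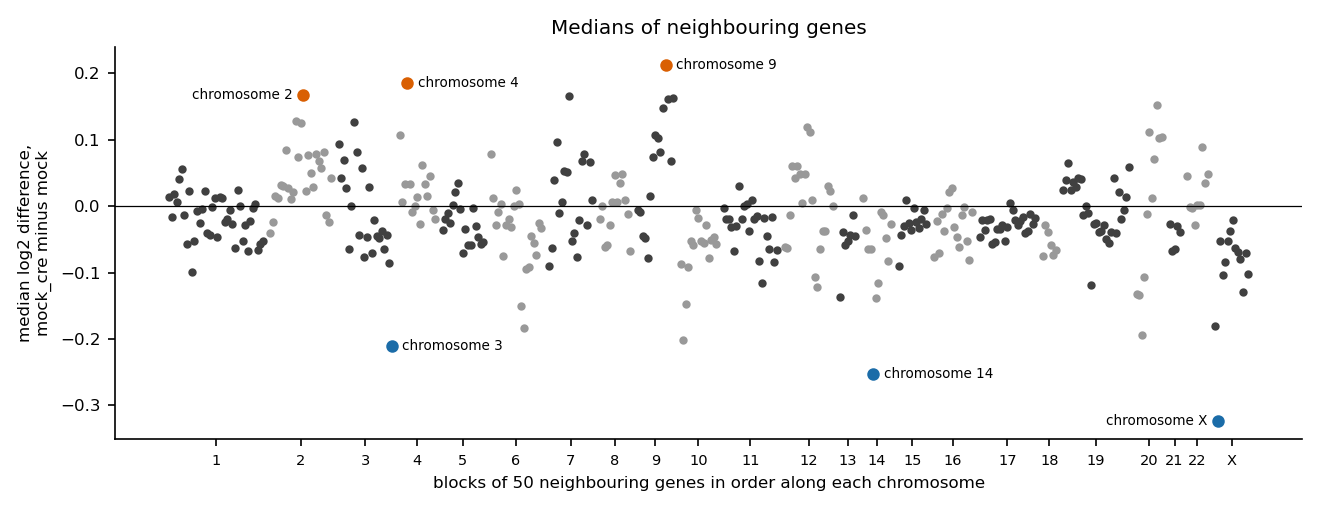
Median log2 difference, mock_cre minus mock (y axis), of blocks of 50 neighbouring genes in order along each chromosome (x axis, shades alternate by chromosome, the last block of a chromosome may hold 25 to 74 genes). The 3 lowest blocks (blue) and 3 highest (orange) carry the name of their chromosome, from -0.324 on chromosome X to 0.213 on chromosome 9.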

How the data were processed

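RNA of each tumour was hybridised to 1 Affymetrix array, with biotin-labelled cRNA made from 100 ng of total RNA. RMA made the deposited log2 values, per the submitters' processing notes, and every probe set has a median of 0 across the 16 arrays, so the authors' file holds centred values. Platform, software version and annotation are not given in the sources used here. Of 54675 probe sets, 41476 named exactly 1 gene, 961 several, 12176 none, and 62 were controls. After leaving out 5 probe sets with clashing symbols, means over probe sets gave 20279 genes, 10738 with several probe sets. Symbols were updated for 3319 genes, and 19252 matched the RefSeq gene table.

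The model was fitted in limma (version 3.58.1, under R version 4.3.3) with a mean for each line over 16 arrays (12 residual degrees of freedom), two-sided, with Benjamini-Hochberg adjustment over all genes at 0.05. Every adjusted p in the report is from limma unless a permutation test is named. Plots were drawn with matplotlib 3.10.9, and tables were handled with numpy 2.4.6 and pandas 2.3.3 under Python 3.11.15. Before use, the fit was tested on simulated data. Genes and gene lists were chosen with earlier results of these data known. The text names the 15 genes with the largest rise and the 15 with the largest fall among called genes without overlap, the called genes of lowest adjusted p in every list (up to 4, or 1 uncalled gene), TERT, the 5 largest differences between the pairs in each direction, and 5 genes of each extreme block. A few genes that this rule named are not reported here. CLTRN was also placed in its block, and called markers of other cell types were named after their values were seen. List members not measured, among them TERC, HOXA9, POU5F1, SAA1, SAA2 and 12 cancer-testis genes, were left out. A filter on dim genes could not be run on centred values.

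Alternatives were other gene values, normalizations, variance models and thresholds, the array controls as covariate or block, a replicate block and leaving out each array. The arrays of high spike signal alone, and the low-spike or high-spike arrays for other results than the count of calls, were chosen after seeing the data. Equal replicate numbers did not pair tumours: the correlations of their deviations were -0.047, 0.369, -0.044 and -0.031. Depth has no counterpart on arrays, and 4 arrays per line limit the precision.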

Additional observations from a re-analysis of the deposited data

Results flagged for a closer look

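Of 350 groups of 4 tumours (each named gene in mock_cre and in mock, and 5 array control measures), 18 held a tumour set far apart from the other 3 by Dixon's test, where chance gives about 1 in 20. In mock_cre tumours the lowest value stood apart for ISG20 (-0.81), TAP2 (-0.14), TAP1 (-0.12) and PRDX1 (-0.58), and the highest for COX5A (-0.21). In mock tumours the lowest stood apart for IFI16 (0.26), FZD8 (-0.53), UQCRFS1 (-0.14), TNFRSF10A (0.12) and MAGEB6 (0.15). The highest mock tumour stood apart for TLCD4 (1.02), PLAG1 (0.33), PFKFB3 (0.08), CDH2 (0.79), KRT18 (-0.26), HOXA13 (0.04), IER5L (0.28) and the poly-A spike controls (1.23).

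For 119 of the named genes the difference between LhTERTL_cre minus LhTERTL and mock_cre minus mock passed an adjusted p of 0.05 in limma. Most named genes were picked by mock_cre minus mock, so this number follows in part from that choice. The value is the first contrast minus the second on the log2 scale, so it is positive where mock_cre lay lower relative to mock than LhTERTL_cre relative to LhTERTL. Among the 15 largest rises, it was -3.81 for ESRP1, -3.19 for KRT75, -2.24 for PRKAR2B, -3.84 for EYA1, -1.93 for SRPX, -2.15 for LRRC31, -1.61 for DACH2 and -2.19 for TLCD4. Among the 15 largest rises, again, it was -2.77 for SPINK5, -1.58 for KCNMB4, -2.02 for PLAG1, -1.59 for SSTR5-AS1 and -1.88 for NCRNA00291. Among the 15 largest falls, it was 1.81 for MX1, 4.19 for HSD17B2, 1.86 for IFI27, 2.46 for CLTRN, 2.18 for NME5, 2.78 for TFF2, 1.59 for CXCL6 and 1.45 for MX2. Among the 15 largest falls, again, it was 2.48 for PLAT, 2.05 for UTS2, 2.87 for BCL2A1, 2.20 for ACTRT3, 1.44 for IFI16 and 1.59 for CYP2R1. ISG20 (2.11) was from the list of interferon-stimulated genes. CXCL8 (1.56), CXCL2 (1.33) and CXCL5 (0.52) were from the list of NF-kB targets and cytokines. AIM2 (1.11) and CGAS (0.42) were from the list of DNA sensing and interferon induction. RAD50 (0.77) was from the list of DNA damage checkpoint and repair. AEN (0.78), GADD45A (0.50) and GADD45B (0.50) were from the list of p53 target genes. PCNA (0.63), GINS1 (0.78) and TTK (0.87) were from the list of cell cycle. FDFT1 (-0.84) was from the list of cholesterol and fatty acid synthesis. PSPH (-0.84), XBP1 (-0.39) and ATF4 (-0.51) were from the list of unfolded protein and amino acid stress. PFKFB3 (0.53) and ADM (-1.27) were from the list of hypoxia and glycolysis. SNAI2 (1.17), CDH2 (0.75) and GNG11 (1.95) were from the list of mesenchymal genes. PKP1 (2.13), DSC2 (1.03), KRT18 (-1.09) and KRT81 (1.41) were from the list of epithelial junction genes and keratins. ITGA3 (0.51) was from the list of integrins and laminins. COL5A2 (-1.32) was from the list of collagens and matrix proteases. TFF3 (1.91), STEAP2 (-0.92) and SPDEF (-0.57) were from the list of prostate genes. FZD7 (-1.33), MYC (0.41) and FZD8 (1.03) were from the list of Wnt pathway genes. BAMBI (-1.48), TGFBR3 (1.57) and ID3 (-2.62) were from the list of TGF-beta and BMP responses. DUSP5 (1.01), HBEGF (0.56) and NRG2 (0.71) were from the list of EGFR family receptors and ligands. ODC1 (1.03) and POLR1B (-0.35) were from the list of MYC targets and ribosome biogenesis. RPS21 (-0.47), RPS15 (-0.33), RPL11 (-0.32) and RPL31 (-0.41) were from the list of cytosolic ribosomal proteins. NDUFB10 (0.44), ATP5F1C (0.32) and COX5A (0.30) were from the list of respiratory chain. TERT (-0.95) was from the list of shelterin, telomerase and CST. MT1M (1.61) was from the list of metallothioneins. GPX4 (-0.71) was from the list of NRF2 and glutathione defence. BAG3 (0.74) and HSP90AA1 (0.34) were from the list of heat shock proteins and co-chaperones. TNFRSF10A (0.82) and BCL2L1 (0.45) were from the list of apoptosis and TRAIL. TFPI2 (1.96) and CD55 (1.08) were from the list of complement and acute phase. HOXA10 (-0.65), HOXA13 (-1.27) and HOXD3 (0.63) were from the list of HOX genes. IGF2BP3 (0.48) and CD44 (0.36) were from the list of stem cell and oncofetal genes. S100A10 (0.59), S100A9 (-1.99) and S100P (-1.70) were from the list of S100 proteins. Of the genes named for a large difference between the pairs, it was 2.54 for ANXA10, -3.90 for FGG and -3.57 for FGB. In the block of neighbouring genes on chromosome X, it was 1.62 for SH3KBP1, 0.90 for SCML1, 1.28 for AP1S2 and 1.07 for EIF1AX. In the block of neighbouring genes on chromosome 14, it was 0.95 for CDKN3, 0.88 for GCH1, 0.92 for DLGAP5, 0.65 for TMX1 and 0.75 for PTGER2. In the block of neighbouring genes on chromosome 3, it was 0.62 for FYTTD1 and 0.48 for DYNLT2B. In the block of neighbouring genes on chromosome 9, it was -1.40 for IER5L, -0.63 for GOLGA2, -0.46 for SPOUT1, -0.64 for ENDOG and -0.52 for LRRC8A. In the block of neighbouring genes on chromosome 4, it was -2.01 for LIMCH1, -1.03 for TMEM156 and -0.59 for KLHL5. In the block of neighbouring genes on chromosome 2, it was -1.37 for EPB41L5, -1.81 for MAP3K2-DT, -1.24 for PTPN4 and -0.70 for DBI.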

How the results depend on the processing

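The count of 3863 genes called kept within 1.5 times under other probe set values, quantile normalization, array medians set to 0, the 8 arrays alone, robust moderation, array weights, the spike class as a block and the low-spike arrays, with values from 2749 to 5057 (2645 among genes with several probe sets). With a covariate for the 3'/5' ratio it was 1835 (796 higher, 1039 lower), 1618 of them called without it. It was 189 on the high-spike arrays, which leave 1 mock and 2 mock_cre arrays, 139 for differences tested against 0.5, 2238 at an adjusted p under 0.01, and 1984 where every probe set of a gene had to be called one way. Leaving out each array gave 2867 to 3951 genes. The 2152 genes that differed between the pairs became 974 with the covariate and 97 on the high-spike arrays, and 1544 to 2721 without 1 array. With the replicate number as a block, 3858 genes and 2179 differences between the pairs were called. The difference of -0.42 for TERT was -0.14 for its second probe set and -0.52 with the covariate, neither called, and -0.50 to -0.31 without 1 array. The difference of 0.57 in the 3'/5' ratio was 0.38 to 0.65 without 1 array. Of 168 other called named genes, 40 lost the call with the covariate, 10 under quantile normalization, 11 on the low-spike arrays, 124 on the high-spike arrays and 1 to 7 without 1 array, and 0 changed sign under these settings. The causes of these changes were not tested, apart from the smaller number of arrays or the stricter rule that a setting itself brings.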
